A study of Rattus norvegicus with 6 samples.

Results

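The levels of 8 RNAs that belong to ribosome production, or that fell beside ribosomal RNA, were followed in cultured rat hippocampal cells exposed to insulin. They are Rmrp, the symbol of the RNase MRP RNA; Gas5, a noncoding host gene of small nucleolar RNAs; the ribosomal RNA rows Rn45s, Rn18s, Rn28s and Rn5-8s; and the protein-coding genes Dolpp1 and Arhgef40. The rows were taken by symbol, and all 8 were found among 37183 symbols. They were chosen with the values of these libraries known, so every level and difference is a description and carries no test.

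RNA polymerase I transcribes a long precursor, the 45S pre-rRNA, in which the 18S, 5.8S and 28S rRNAs are separated by spacers that are cut away. RNase MRP is a ribonucleoprotein that shares most of its proteins with RNase P and cuts one of these spacers, and its RNA is made by RNA polymerase III. Small nucleolar RNAs, many of them released from the introns of host genes such as Gas5, guide the chemical modification of rRNA. Insulin signalling through mTOR is known to favour transcription by both polymerases.

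The libraries came from cultures labelled primary hippocampal astrocytes and primary hippocampal neurons of the rat. Of the 3 libraries per cell type, 1 was the control at 0 h, called saline in the titles and untreated in the characteristics, and the others came from cultures given 200 nM insulin for 6 h or 12 h. There was 1 library per group, so no difference has a replicate check. Cultures received fresh medium 4 h ahead of treatment, with 2% serum and 5 mM glucose for astrocytes and free of serum and insulin for neurons; no control of 6 h or 12 h is among the 6 libraries, so insulin and time in that medium cannot be told apart. Total RNA was depleted of ribosomal RNA before sequencing with a strand-specific kit. A mature rRNA level therefore describes what depletion left, as the Rn45s level may in part, and the efficiency of depletion was not measured here. Values are log2 FPKM (fragments scaled for transcript length and library size), quantile-normalised across the 6 libraries.

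The labels were checked against defining markers. The 6 astrocyte markers summed to between 11.8 and 17.0 FPKM in the astrocyte-labelled libraries and to between 240 and 256 FPKM in the neuron-labelled ones. The 6 smooth muscle and fibroblast markers summed to between 516 and 610 FPKM in the astrocyte-labelled libraries. The 6 neuron markers summed to between 43.8 and 47.4 FPKM in the neuron-labelled libraries, whose 5 oligodendrocyte lineage markers summed to between 108 and 115 FPKM; the excitatory neuron marker Slc17a7 was near 0 in all 3. No library reached a sum of 1 FPKM for microglia or for endothelial markers. The libraries are therefore called astrocyte-labelled and neuron-labelled. Fewer cells of a type and less RNA per cell cannot be told apart in these bulk samples.

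**Figure D1:**
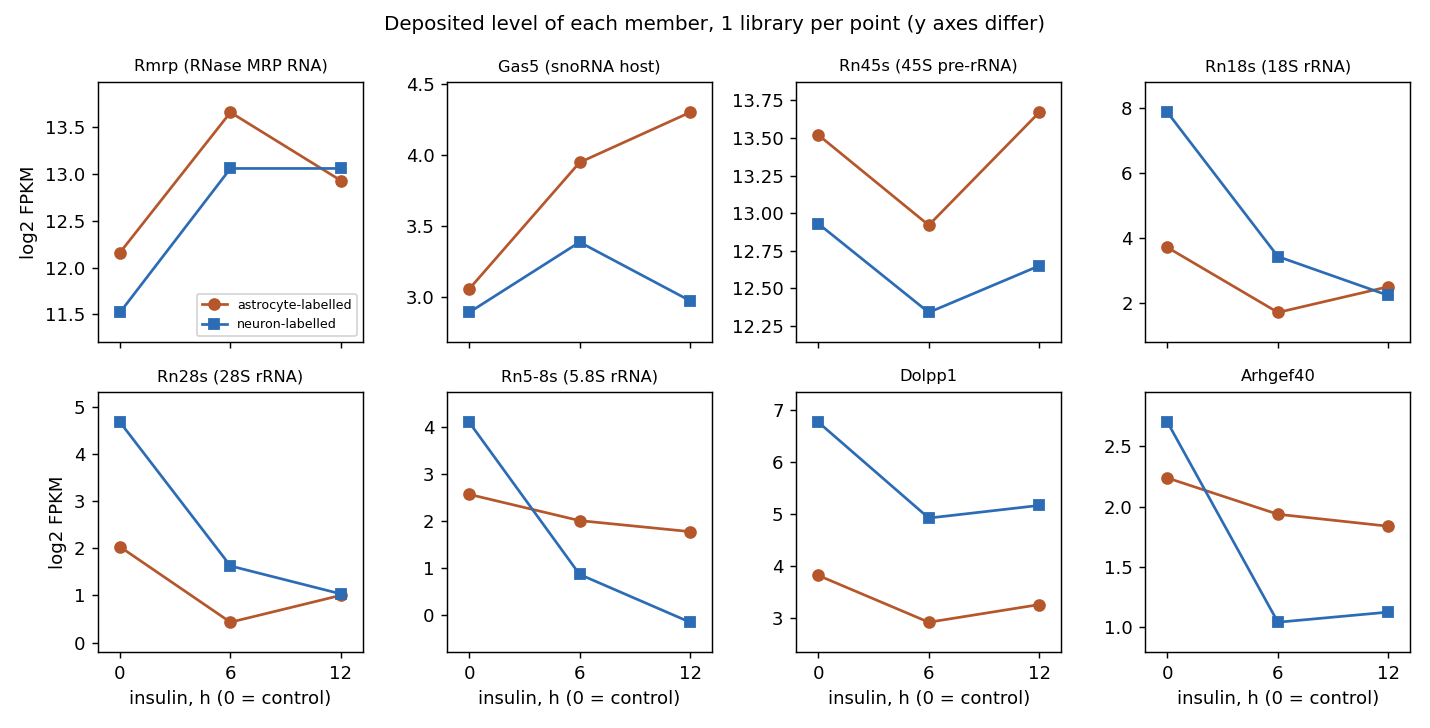
Level (log2 FPKM, vertical axes differ between panels) of the 8 RNAs against hours of insulin, with the control at 0; each point is 1 library, circles for astrocyte-labelled and squares for neuron-labelled cultures. The neuron-labelled control stands highest for Rn18s (7.87), Rn28s (4.68), Rn5-8s (4.11), Dolpp1 (6.77) and Arhgef40 (2.70), while Rmrp is lowest in the controls.

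Across the 8 RNAs, Rmrp was higher and the mature rRNA rows were lower after insulin in both cell types, with larger differences of the mature rows in the neuron-labelled cultures, a contrast between cell types that was not tested. The line for calling a gene higher or lower was a 2-fold difference (1 on the log2 scale), and a gene was compared if both libraries gave it a value and one of them reached 1 FPKM; all 8 entered each comparison. "Rose" and "fell" are used only where that size was reached. Among the 8, 5 fell in the neuron-labelled cultures at 6 h, where 1.29% of 6610 genes were lower, and the same 5 fell at 12 h, where 1.45% of 6641 were. They were Rn18s, Rn28s, Rn5-8s, Dolpp1 and Arhgef40. Rmrp rose at each time, where 1.60% of genes at 6 h and 2.39% at 12 h were higher. In the astrocyte-labelled cultures Rn18s and Rn28s fell at both times, where 0.886% of 6206 genes at 6 h and 0.916% of 6221 at 12 h were lower. Rmrp rose there at 6 h (1.05% of genes higher) and Gas5 at 12 h (0.611%). Because the RNAs were chosen on these contrasts, nothing is read from those shares.

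The median difference of the 8 was -0.58 and -0.48 in the astrocyte-labelled cultures at 6 h and 12 h, beside 0.09 and 0.10 over all genes compared. For the neuron-labelled cultures it was -1.75 and -1.59, beside 0.14 and 0.14 over all genes. Centring took from each comparison the median difference of its genes of at least 5 FPKM. The median over all genes was then between -0.002 and 0.011, a value that this step largely fixes. Higher genes made up 54.2% and 40.0% of the calls in the astrocyte-labelled cultures at 6 h and 12 h and 55.5% and 62.4% in the neuron-labelled ones; centred, these were 40.2%, 29.0%, 40.4% and 44.6%. The times of a cell type share its control library, so they are not independent.

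**Figure D2:**
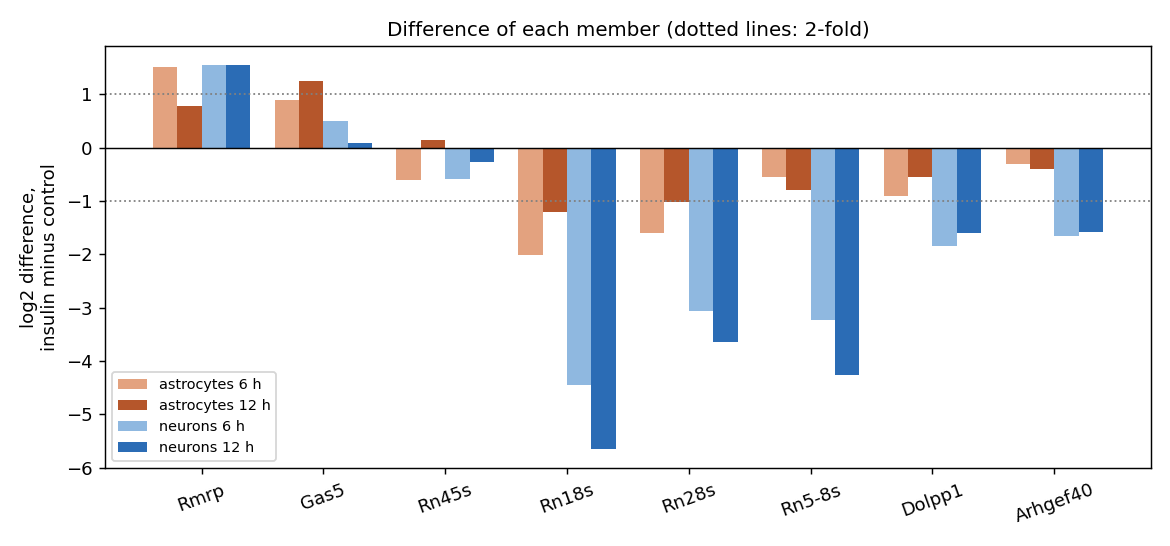
Difference in level (log2, insulin minus control of the same cell type) of the 8 RNAs, with 1 bar for each cell type and time and dotted lines at a 2-fold difference. The longest bars are those of Rn18s in the neuron-labelled cultures (-4.45 at 6 h and -5.65 at 12 h), and of the 8 RNAs Rmrp and Gas5 have all 4 bars above 0, although that of Gas5 in the neuron-labelled cultures at 12 h (0.08) is -0.06 when centred.

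Rmrp was among the highest rows of every library. In the astrocyte-labelled cultures its level was 4569 FPKM without insulin, 12927 FPKM at 6 h and 7785 FPKM at 12 h. The neuron-labelled libraries held it at 2938, 8555 and 8566 FPKM. Both insulin libraries of each cell type lay above their control. The 2 neuron-labelled insulin libraries differed from each other by 0.002 on the log2 scale, which follows from the same rank 5 in both. The difference from control was 1.50 at 6 h and 0.77 at 12 h in the astrocyte-labelled cultures, and 1.54 at both times in the neuron-labelled ones, a 2.91-fold and a 2.92-fold rise.

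At this height the deposited value is set by the rank of a row in its library. The quantile step gives the rows at a given rank nearly the same value in every library (between 13.52 and 13.88 for rank 4), and between ranks 4 and 10 the step from one rank to the next was between 0.26 and 0.82. Rmrp was the row of rank 7, 4 and 5 in the astrocyte-labelled control, 6 h and 12 h libraries, and of rank 9, 5 and 5 in the neuron-labelled ones. Its 2.83-fold rise at 6 h in the astrocyte-labelled cultures is thus a move past 3 rows, Rn45s, Rnr2 and LOC310926. In the neuron-labelled cultures it moved past 4 rows at each time, Rn45s, Rnr1, LOC310926 and LOC102553290. No row passed Rmrp in any insulin library, so the direction of the move is in the order of the rows. The size in fold is that of the shared scale. LOC310926, a row it passed, had rank 4 in the neuron-labelled control and rank 9 at both insulin times. LOC102553290 had rank 7 in that control and 11 at 12 h. Over control, 6 h and 12 h, Rn45s had rank 5, 7 and 6 there and Rnr1 8, 8 and 7. What part of the move came from rows that dropped was not tested. Rn7sl1, the RNA of the signal recognition particle, shows the same limit: it was at 26958 FPKM as the row of rank 3 in the neuron-labelled control and at 111749 FPKM as the row of rank 1 in the other 5 libraries, a difference of 2.05 that follows from 2 ranks.

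**Figure D3:**
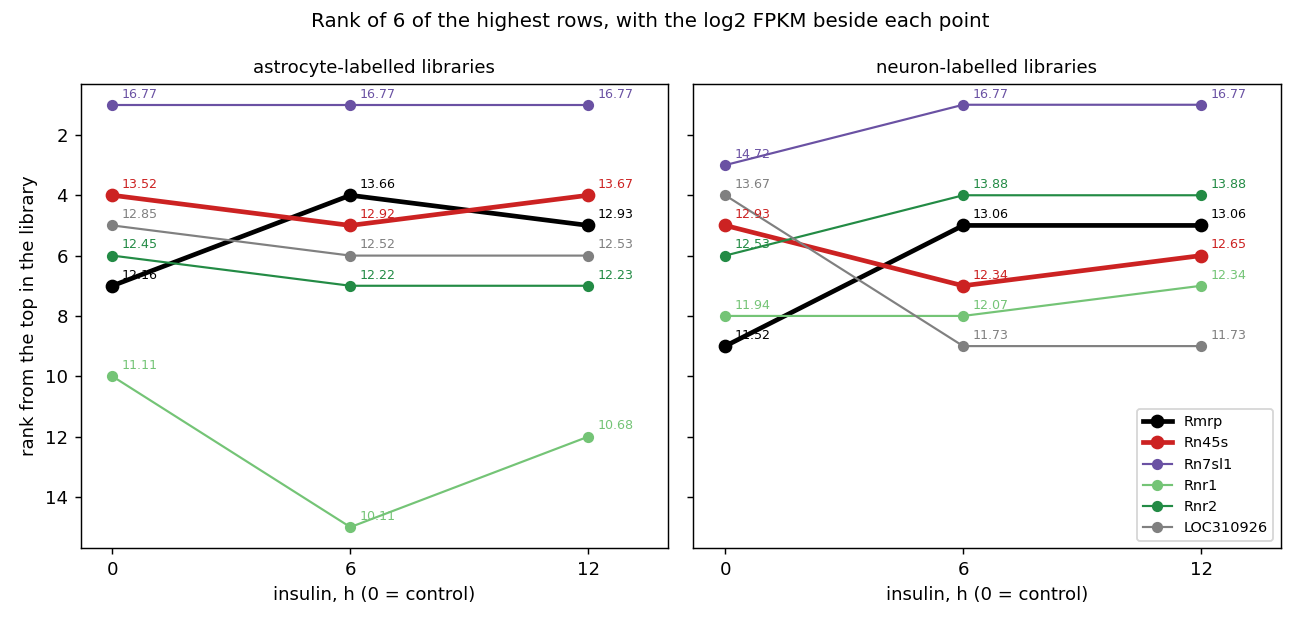
Rank from the top (1 is the highest row) of Rmrp, Rn45s and 4 other abundant rows against hours of insulin, with the control at 0 and the log2 FPKM written beside each point. Rmrp moves up, to rank 4 at 6 h against 7 in the control in the left panel and to rank 5 against 9 in the right, and crosses Rn45s in 3 of the 4 insulin libraries.

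The name of the Rmrp row needs care. The RefSeq table of assembly GRCr8 held 1 entry with Rmrp among its symbols, as an older name: its current symbol is Rpph1, the name of the RNase P RNA, its class is given as RNase MRP RNA, and it lies inside the span of Parp2. No second RNase MRP RNA entry was in that table. Whether the row measured the RNA of RNase MRP or that of RNase P was not settled by the files.

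Of 12 genes for RNase MRP and RNase P proteins, 7 were compared in the astrocyte-labelled and 8 in the neuron-labelled cultures. The others were under 1 FPKM. None of those compared rose or fell. Over all genes, between 0.611% and 2.39% were higher and between 0.886% and 1.45% lower, so nothing is read from that count. The median difference of those compared was 0.21 and 0.01 in the astrocyte-labelled cultures at 6 h and 12 h, beside 0.09 and 0.10 over all genes. In neuron-labelled cultures it was 0.14 and 0.004, beside 0.14 and 0.14; centred, the medians at 12 h were -0.08 in the astrocyte-labelled and -0.14 in the neuron-labelled cultures. Rpp25, an RNA-binding subunit, was at 9.26, 7.98 and 5.21 FPKM in the neuron-labelled control, 6 h and 12 h libraries, and Pop4, another subunit of both particles, was at 1.98, 2.67 and 2.86 FPKM.

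The row named for the precursor, Rn45s, did not reach a 2-fold difference in any comparison. It was at 11771, 7752 and 13032 FPKM in the astrocyte-labelled control, 6 h and 12 h libraries, and at 7795, 5176 and 6418 FPKM in the neuron-labelled ones. The 6 h library was the lowest of each cell type. The differences from control were -0.60 and 0.15 in the astrocyte-labelled cultures at 6 h and 12 h, and -0.59 and -0.28 in the neuron-labelled ones. They amount to 1 rank down at 6 h and the same rank 4 at 12 h in the first, and to 2 ranks and 1 rank down from rank 5 in the second. In the astrocyte-labelled 6 h library Rmrp took rank 4, and Rn45s, LOC310926 and Rnr2 followed in the order of the control. The -0.60 there is thus not separate from the move of Rmrp. In the neuron-labelled cultures Rmrp and Rnr2 passed Rn45s at both times and COX1 at 6 h, while LOC310926 dropped below it. The same rank 4 gave 13.52 in the astrocyte-labelled control and 13.67 at 12 h, so that difference of 0.15 holds no change of order. Redoing the quantiles over the symbols with a value in all libraries brought it to 0.00.

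The rows of the mature rRNAs were lower than the Rn45s row, by 33.3-fold or more in every library, and differed more between libraries. The Rn18s entry lies inside the Rn45s entry in GRCr8, so the Rn45s row may hold mature 18S reads. Whether that row measures the precursor or rRNA that depletion left was not tested. Rn18s, the RNA of the small ribosomal subunit, was at 13.0, 3.24 and 5.62 FPKM in the astrocyte-labelled control, 6 h and 12 h libraries, and at 234, 10.7 and 4.65 FPKM in the neuron-labelled ones. The neuron-labelled control stood above the other 5 libraries, and both controls stood above the insulin libraries of their own cell type. The differences of Rn18s were -2.01 and -1.21 at 6 h and 12 h in the astrocyte-labelled cultures, and -4.45 and -5.65 in the neuron-labelled ones. The last 2 are 21.9-fold and 50.3-fold lower than in the control, and no gene compared was lower at either time. Its rank was 68 in that control, 1028 at 6 h and 2067 at 12 h; at these heights the step between neighbouring ranks was at most 0.0406, so the size is not set by single ranks.

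Rn28s, the main RNA of the large subunit, was at 4.09, 1.35 and 2.01 FPKM in the astrocyte-labelled control, 6 h and 12 h libraries, and at 25.7, 3.09 and 2.05 FPKM in the neuron-labelled ones. Its differences were -1.60 and -1.03 in the astrocyte-labelled cultures at 6 h and 12 h, and -3.05 and -3.65 in the neuron-labelled ones. On the log2(FPKM + 1) scale the astrocyte-labelled difference at 12 h was -0.76, short of 2-fold. Rn5-8s, the small RNA paired with 28S rRNA, was at 5.93, 4.03 and 3.42 FPKM in the astrocyte-labelled libraries and at 17.2, 1.82 and 0.899 FPKM in the neuron-labelled ones. Its differences of -0.56 and -0.79 in the astrocyte-labelled cultures were short of 2-fold, while those in the neuron-labelled ones were -3.24 and -4.26.

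The mature rows thus stood highest in the control of each cell type, but their order afterwards differed. Between the 12 h and 6 h insulin libraries, a comparison that does not use the control, Rn18s differed by -1.20, Rn28s by -0.60 and Rn5-8s by -1.02 in the neuron-labelled cultures. In the astrocyte-labelled cultures Rn18s was higher by 0.79 and Rn28s by 0.57 at 12 h than at 6 h, and Rn5-8s differed by -0.23.

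Ratios of the deposited values within a library are given as they stand, with the limits that Rn45s lies where values follow ranks and that the split of reads between it and Rn18s is uncertain. Rn45s was 905-fold above Rn18s in the astrocyte-labelled control, 2390-fold at 6 h and 2320-fold at 12 h. In the neuron-labelled libraries it was 33.3-fold above in the control, 483-fold at 6 h and 1380-fold at 12 h. Rn18s was 9.12-fold above Rn28s in the neuron-labelled control, 3.47-fold at 6 h and 2.27-fold at 12 h, and between 2.40-fold and 3.18-fold above it in the astrocyte-labelled libraries. The neuron-labelled control thus had the highest level of each mature row and the highest ratio of Rn18s to Rn28s of the 6 libraries. The rows Rn18s, Rn28s and Rn5-8s together held 0.0924% of the summed FPKM in that control and between 0.00241% and 0.00796% in the other libraries. The Rn45s row, which may hold mature 18S reads, held between 1.65% and 4.35% over the 6 libraries. These are shares of length-scaled, quantile-normalised values and not of reads.

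The entries overlap in part. In the GRCr8 table the Rn18s entry, 1.872 kb long, lies inside the Rn45s entry of 8.679 kb, while those of Rn28s and Rn5-8s do not, and 3 entries have the length of Rn18s. Among the 159 rRNA entries there, 5 had a row in the deposited values, the last of them Rn5s, which had a value in the neuron-labelled control only (0.331 FPKM). The submitters' notes name another build, Rnor 6.0. Whether the other entries lacked a row through naming or annotation was not tested. How reads that match several of these entries were assigned is not given in the sources used here, and no sequences were compared. The mitochondrial rRNAs, made by another polymerase from the mitochondrial genome, stood among the highest rows. Rnr1 was at 2206, 1105 and 1644 FPKM and Rnr2 at 5614, 4785 and 4805 FPKM in the astrocyte-labelled control, 6 h and 12 h libraries. Neuron-labelled libraries had Rnr1 at 3922, 4306 and 5179 FPKM and Rnr2 at 5923, 15085 and 15107 FPKM, a move of Rnr2 to rank 4 against rank 6 in the control. Rnr1 had rank 8 at 6 h and 7 at 12 h there, against 8 in the control.

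Dolpp1 and Arhgef40 are protein-coding genes outside the ribosome pathway. Dolpp1 is a phosphatase of the endoplasmic reticulum that recycles dolichyl pyrophosphate, the lipid carrier of N-glycosylation, and Arhgef40 is a guanine nucleotide exchange factor. Dolpp1 was at 14.2, 7.61 and 9.62 FPKM in the astrocyte-labelled control, 6 h and 12 h libraries, and at 109, 30.5 and 36.0 FPKM in the neuron-labelled ones. It stood highest in the control of each cell type, and its differences were -0.90 and -0.56 in the astrocyte-labelled cultures at 6 h and 12 h and -1.84 and -1.60 in the neuron-labelled ones. Arhgef40 was at 4.72, 3.83 and 3.58 FPKM in the astrocyte-labelled libraries and at 6.504, 2.06 and 2.18 FPKM in the neuron-labelled ones. Its differences were -0.30 and -0.40 in the astrocyte-labelled cultures and -1.66 and -1.58 in the neuron-labelled ones.

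Both genes, like the mature rRNA rows, stood highest in the control of each cell type, and in the neuron-labelled cultures their differences were smaller than those of the mature rows. Dolpp1 was 0.467 times the level of Rn18s in the neuron-labelled control, 2.84 times at 6 h and 7.74 times at 12 h, and 1.09, 2.35 and 1.71 times in the astrocyte-labelled libraries. Arhgef40 was at 0.0278, 0.192 and 0.469 times Rn18s in the neuron-labelled libraries and at 0.363, 1.18 and 0.637 times in the astrocyte-labelled ones. Between the 12 h and 6 h insulin libraries of the neuron-labelled cultures Dolpp1 differed by 0.24 and Arhgef40 by 0.08, where Rn18s differed by -1.20. In the astrocyte-labelled cultures Dolpp1 differed by 0.34 and Arhgef40 by -0.10, where Rn18s differed by 0.79. Whether rRNA reads were counted in either gene was not tested, and transcript sequences were not used here.

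Of 22 other genes in the pathway of Dolpp1, dolichol synthesis and use, 12 were compared in the astrocyte-labelled and 11 in the neuron-labelled cultures. None of those compared fell. Over all genes, between 0.886% and 1.45% were lower, so nothing is read from that count. Of the list only Dpm3, a subunit of dolichol-phosphate mannose synthase, rose. It was at 3.07, 6.70 and 6.98 FPKM in the astrocyte-labelled control, 6 h and 12 h libraries and at 1.93, 5.01 and 6.22 FPKM in the neuron-labelled ones. Its pseudogene Dpm3-ps1 has a row of its own, which was lower at both times in the astrocyte-labelled cultures, and how reads were split between them is not known. The median of the list was 0.07 and 0.10 in the neuron-labelled cultures at 6 h and 12 h, below the 0.14 of all genes, and -0.06 and -0.04 when centred; in the astrocyte-labelled cultures it was 0.22 and 0.14.

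A fall at both insulin times was found for 54 of 6475 genes (0.834%) in the neuron-labelled cultures. Of these, 5 were among the 8 RNAs and 38 were listed under a locus identifier in place of a gene symbol. Likeness was measured as Euclidean distance over the 4 differences, among 1757 genes with a value in every library and at least 5 FPKM in one of them, so a gene may be low in one cell type. The 8 RNAs were first set beside each other: Dolpp1 and Arhgef40 lay 0.65 apart, Rn28s and Rn5-8s 1.25, and Rn18s and Rn5-8s 2.38. The 8, the locus identifiers and the symbols of microRNAs and small nucleolar or nuclear RNAs were then left out. The rows nearest to Dolpp1 were Rpl35a (0.80), a ribosomal protein, Hist2h4 (0.85), a replication histone, and the pseudogene Rpl38-ps3 (1.22). Outside the 8, the same rows were nearest to Arhgef40, at 0.55, 0.31 and 0.98. Hist2h4 was at 7.82, 2.61 and 2.90 FPKM in the neuron-labelled control, 6 h and 12 h libraries, and Rpl35a at 6.77, 2.66 and 3.03 FPKM. Dll4, a Notch ligand, was the nearest named gene outside the 8 to Rn18s (2.23), Rn28s (1.97) and Rn5-8s (2.61), and the next, Hist2h4, lay at 5.48, 3.09 and 3.32, followed by Rpl35a at 5.72, 3.27 and 3.65. It was at 2.07, 0.399 and 0.328 FPKM in the astrocyte-labelled control, 6 h and 12 h libraries and at 5.75, 0.536 and 0.282 FPKM in the neuron-labelled ones. Between 10 and 16 of the locus identifiers and small RNA symbols left out lay nearer to each of these 5 RNAs than the last gene named for it. For Rn45s the nearest named genes were Eid1 (0.35), Mxd4 (0.44) and Ctdsp2 (0.49), and for Rmrp they were Dpm3 (0.60), Plau (0.88) and Zik1 (1.01). Plau was at 0.0267, 0.0626 and 0.0988 FPKM in the neuron-labelled control, 6 h and 12 h libraries, under the 1 FPKM used for calls. All 4 differences rest on the 2 control libraries, so such likeness describes these 6 libraries only.

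**Figure D4:**
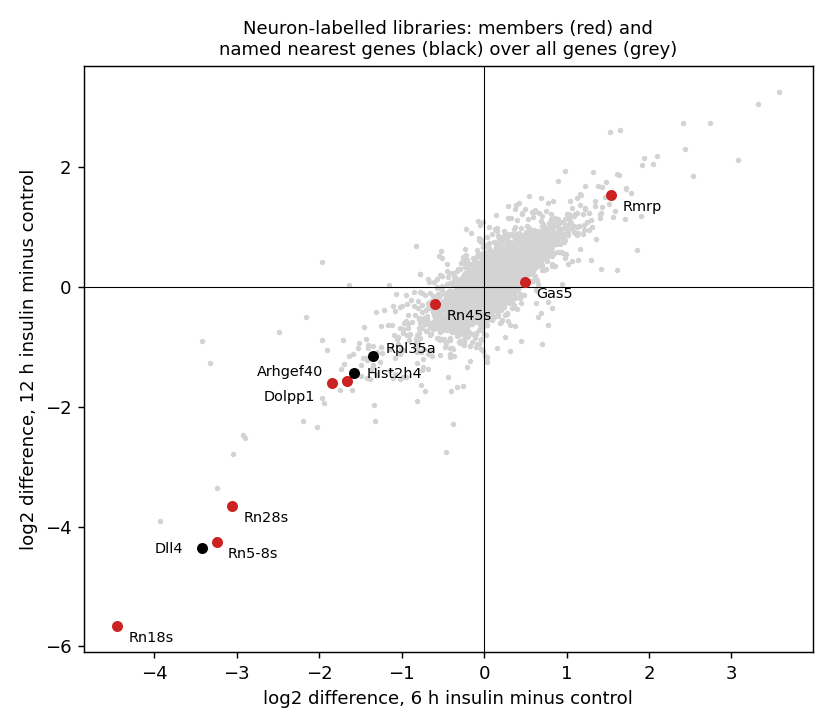
Difference in level (log2, insulin minus control) at 12 h against that at 6 h in the neuron-labelled cultures, with 1 point per gene, the 8 RNAs in red and Dll4, Hist2h4 and Rpl35a in black. Both axes use the same control library; Rn18s lies lowest on both (-4.45 and -5.65), and Dolpp1 and Arhgef40 lie beside Hist2h4.

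Marker levels also differed between libraries of a cell type. In the astrocyte-labelled libraries the astrocyte markers summed to 11.8, 17.0 and 12.1 FPKM over control, 6 h and 12 h, with Gfap at 6.23, 12.4 and 8.45 FPKM. In the neuron-labelled libraries the 6 smooth muscle and fibroblast markers summed to 4.43, 6.65 and 10.6 FPKM over control, 6 h and 12 h, most of it from Tagln. The oligodendrocyte lineage markers summed to 114, 108 and 115 FPKM, the astrocyte markers to 240, 256 and 248 FPKM, and Gad1, a marker of inhibitory neurons, was at 5.78, 5.38 and 3.38 FPKM. The part of these marker differences in the values of the 8 RNAs was not tested.

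Because Dolpp1 and Arhgef40 fell together, their promoters are shown, from 250 bases before to 50 after the start in RefSeq's GRCr8. Of the 8 RNAs, 3 had a promoter in that table. Dolpp1 is at chr3:34063575-34063874 and Arhgef40 at chr15:27146018-27146317, both on the plus strand and printed 5′ to 3′. Capitals mark matches, on either strand, to CCAAT, the cAMP response element TGACGTCA, TATATA or the E-box CACGTG.
Dolpp1: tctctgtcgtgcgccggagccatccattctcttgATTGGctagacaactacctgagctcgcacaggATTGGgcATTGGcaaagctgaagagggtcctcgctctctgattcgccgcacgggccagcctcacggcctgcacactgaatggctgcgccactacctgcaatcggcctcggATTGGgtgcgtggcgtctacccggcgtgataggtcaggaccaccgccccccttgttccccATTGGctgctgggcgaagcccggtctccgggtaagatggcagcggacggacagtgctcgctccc
Arhgef40: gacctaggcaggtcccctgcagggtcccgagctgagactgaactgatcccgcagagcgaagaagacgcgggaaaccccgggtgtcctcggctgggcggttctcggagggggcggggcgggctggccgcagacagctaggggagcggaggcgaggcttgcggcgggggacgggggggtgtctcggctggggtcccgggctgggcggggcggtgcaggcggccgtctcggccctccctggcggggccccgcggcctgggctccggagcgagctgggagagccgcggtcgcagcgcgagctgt
Dolpp1 held 5 matches to CCAAT, written as ATTGG on the printed strand, and 0.218% of 33469 promoters of the same length held 5 or more, while 37.5% held at least 1. The threshold of 5 is the count of Dolpp1 itself, so nothing is read from the 0.218%. Arhgef40 held none of the 4 motifs. Its window was 76.0% G or C, beside 63.0% in Dolpp1 and a median of 51.7% over all promoters. No searched motif was in both windows.

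Gas5 rose at 12 h in the astrocyte-labelled cultures. It was at 8.33, 15.4 and 19.7 FPKM in the astrocyte-labelled control, 6 h and 12 h libraries, and at 7.43, 10.5 and 7.86 FPKM in the neuron-labelled ones. Both astrocyte-labelled insulin libraries lay above their control, with differences of 0.89 at 6 h and 1.24 at 12 h. In the neuron-labelled cultures the differences were 0.49 and 0.08, and the second was between -0.06 and 0.08 over the scalings tried. The difference between the cell types was not tested. The RefSeq table placed 9 small nucleolar RNA entries inside Gas5, and 0 of them had a row. That table is of GRCr8 and the submitters' notes name Rnor 6.0, so names may differ. Nearest to Gas5 over the 4 differences were Scd1 (0.55), Fv1 (0.57) and Hsc70-ps1 (0.59).

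The promoter of Gas5, at chr13:75836713-75837012 on the plus strand of GRCr8, is shown because its RNA rose in the astrocyte-labelled cultures. Capitals mark the same motifs.
Gas5: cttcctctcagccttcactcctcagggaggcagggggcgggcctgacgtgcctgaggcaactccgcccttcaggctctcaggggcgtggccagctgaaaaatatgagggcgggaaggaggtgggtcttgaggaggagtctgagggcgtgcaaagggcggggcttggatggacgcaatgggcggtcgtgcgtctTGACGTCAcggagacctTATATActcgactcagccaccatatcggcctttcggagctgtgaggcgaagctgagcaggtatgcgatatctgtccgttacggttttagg
It held a cAMP response element from -57 to -50, found in 1.83% of promoters, and TATATA from -40 to -35, found in 6.15%, counted from the start.

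Other host genes of small nucleolar RNAs were mixed. Of 35 listed, 17 had a row, and 15 were compared in the astrocyte-labelled and 17 in the neuron-labelled cultures. Snhg4 rose in the neuron-labelled cultures, at 0.334, 3.35 and 2.78 FPKM over the control and the 6 h and 12 h times. Dancr rose at 12 h in the astrocyte-labelled cultures, where it was at 1.16, 1.93 and 2.34 FPKM, a difference of 1.01 that was 0.92 when centred. Snhg11 fell at 12 h in the neuron-labelled cultures, where it was at 2.00, 1.50 and 0.886 FPKM. None of the others reached 2-fold, where between 0.611% and 2.39% of all genes were higher and between 0.886% and 1.45% lower. The median of the list was 0.15 and 0.20 in the astrocyte-labelled cultures at 6 h and 12 h, and 0.24 and 0.24 in the neuron-labelled ones, beside 0.09, 0.10, 0.14 and 0.14 over all genes; centred, the list had 0.07, 0.11, 0.11 and 0.09.

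Genes for proteins that process pre-rRNA had positive medians in all 4 comparisons, with few single changes. Of 111 genes, 64 were compared at 6 h in the astrocyte-labelled cultures, 63 at 12 h, and 64 at each time in the neuron-labelled ones. None fell. At 12 h in the neuron-labelled cultures, where 2.39% of all genes were higher, 2 rose, the only rises of the list. They were Ftsj3, a methyltransferase-like assembly factor, at 2.83, 5.13 and 6.30 FPKM over control, 6 h and 12 h, and Pno1, an assembly factor of the small subunit, at 1.54, 2.70 and 3.21 FPKM. Centred, the difference at 12 h was 1.01 for Ftsj3 and 0.92 for Pno1, the second short of 2-fold. Ddx21, a nucleolar helicase, was at 1.98, 3.72 and 3.83 FPKM, and Npm1, the nucleolar chaperone nucleophosmin, at 6.31, 10.5 and 11.7 FPKM. The median of the list was 0.37 and 0.30 in the astrocyte-labelled cultures at 6 h and 12 h and 0.38 and 0.41 in the neuron-labelled ones, where all genes had 0.09, 0.10, 0.14 and 0.14; centred, the list medians were between 0.21 and 0.29.

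The proteins that bind small nucleolar RNAs gave 0 rises and 0 falls among 10 compared, with medians of 0.46 and 0.37 in the astrocyte-labelled cultures and 0.30 and 0.33 in the neuron-labelled ones. Nop56, a core protein of box C/D particles, was at 5.95, 9.28 and 8.53 FPKM in the astrocyte-labelled control, 6 h and 12 h libraries. Genes of RNA polymerase I, which makes the 45S precursor, gave no 2-fold difference among 7 to 11 compared, with medians of 0.23 and 0.24 in the astrocyte-labelled cultures and 0.09 and 0.15 in the neuron-labelled ones (-0.04 at 6 h when centred). Twistnb, one of its subunits, was at 0.585, 1.06 and 0.974 FPKM in the neuron-labelled libraries. Genes of RNA polymerase III gave none among 10 to 13. Ssb, the La protein that binds new polymerase III transcripts, was at 2.89, 4.79 and 4.62 FPKM in the neuron-labelled libraries. The polymerase III medians were 0.17 and 0.18 in the astrocyte-labelled cultures and -0.004 and -0.03 in the neuron-labelled ones. Over all genes, between 0.611% and 2.39% were higher and between 0.886% and 1.45% lower. Beside those shares, nothing is read from the counts of these lists.

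**Figure D5:**
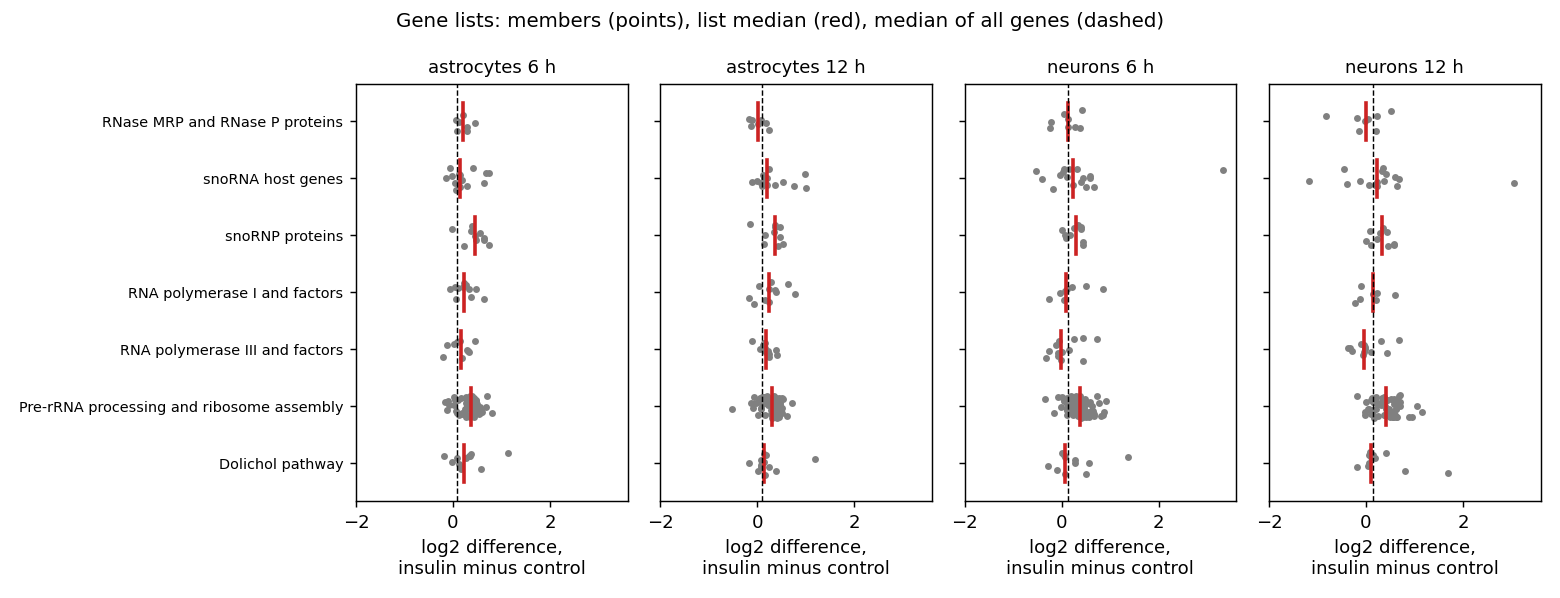
Difference in level (log2, insulin minus control) of the genes of 7 lists, 1 panel per cell type and time; points are genes compared, red marks the list median and the dashed line the median of all genes. The pre-rRNA processing list sits right of the dashed line in all 4 panels, with medians between 0.30 and 0.41.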

How the data were processed

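Total RNA of 6 cultures, 1 per group, was sequenced after ribosomal RNA depletion, per the labels' protocols. Partek 6.5, bcl2fastq 2.17.1.14 and the build Rnor 6.0 appear in the submitters' processing notes; aligner and annotation: not given in the sources used here. The deposited values are log2 FPKM, quantile-normalised across the 6 libraries; base 2 was inferred from the values, since the highest (16.77) would be 19200000 FPKM as a natural log. Read depth is unknown. Each control had fewer symbols with a value than the insulin libraries of its cell type. The astrocyte-labelled control had 22891, beside 23814 at 6 h and 23898 at 12 h. For the neuron-labelled libraries the numbers were 23927, 25510 and 25528 in the same order. What part this had in the differences was not tested. The table had 37185 rows, 2 of them repeats of a symbol.

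Differences were taken as insulin minus the control of the same cell type, for genes valued in each of the pair and reaching 1 FPKM in one of them, and counted from 1 on the log2 scale. With 1 library per group no test was made. The 8 RNAs and the gene lists were chosen with earlier results of these data known. List genes were named when they reached 2-fold, otherwise from the 4 largest differences, and 3 nearest genes per RNA by distance. Other settings were log2(FPKM + 1), centring, redone quantiles, no floor and a floor of 5 FPKM. Calculations, tested on simulated data, used Python 3.11.15, pandas 2.3.3 and numpy 2.4.6. Gene entries and promoters came from RefSeq, assembly GRCr8. A further gene list is not reported here.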

Additional observations from a re-analysis of the deposited data

How the results depend on the processing

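Of 128 recomputed differences of the 8 RNAs, 124 kept their direction and their side of the 2-fold line and 0 reversed a call. The log2(FPKM + 1) scale cannot change a direction. The other settings keep the order of rows in each library or shift all genes of a comparison alike. They could hardly reverse a call, so nothing is read from that 0. A difference that became 0.00 was counted as kept. That was so for Rn45s in the astrocyte-labelled cultures at 12 h under both ways of redoing the quantiles. Gas5 in the neuron-labelled cultures at 12 h, 0.08 as deposited, was -0.06 when centred, -0.04 with quantiles redone over symbols with a value in all libraries and -0.03 with quantiles redone within each cell type. Rn28s in the astrocyte-labelled cultures at 12 h was -0.76 on the log2(FPKM + 1) scale. The cause was not tested.

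Counts over all genes moved more. Without a floor, 1961 genes were higher and 912 lower in the astrocyte-labelled cultures at 6 h, 1939 and 931 at 12 h, and 3049 and 875 in the neuron-labelled ones at 6 h, 3252 and 947 at 12 h; fewer or more genes are compared under another floor. With a floor of 5 FPKM they were 14 and 21, 8 and 13, 26 and 37, and 39 and 36 in the same order. On the log2(FPKM + 1) scale they were 14 and 21, 8 and 19, 28 and 37, and 35 and 32. Centred, 43 genes were higher in the astrocyte-labelled cultures at 6 h. With quantiles redone over symbols with a value in all libraries, 36 were higher there, and 64 and 99 in the neuron-labelled cultures at 6 h and 12 h; redone within each cell type, 36 and, in the neuron-labelled cultures at 6 h, 69.

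No paired analysis was possible because each group had 1 library. Each difference rests on 1 control library per cell type, and leaving out a library leaves no comparison. The values hold no read counts, so counting error is unknown, and near the top of a library they follow ranks.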
